A study of Arabidopsis thaliana with 12 samples.

Results

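DELTA-VPE (AT3G20210) and BETA-VPE (AT1G62710) encode vacuolar processing enzymes and are the 2 genes described here, out of 22746 probe sets tested and 13356 genes with a probe set of their own. Each was read by 1 probe set. Both genes were chosen by their measured levels in the 6 groups of the study, so these levels and the differences between groups are given as a description with no test. Vacuolar processing enzymes are cysteine proteases of the legumain type, which cut after asparagine or aspartate, mature other proteins inside the vacuole and take part in cell death that starts from the vacuole. BETA-VPE is known as the seed form that processes storage proteins, and DELTA-VPE as a form of the inner layers of the developing seed coat, where those layers die. ALPHA-VPE and GAMMA-VPE are known as the forms of leaves and other vegetative organs, where stress, wounding and senescence raise them.

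The study asked how the chromatin modifier ATX1 and the myotubularin homolog MYO1 take part in the response to drought. Total RNA of vegetative rosettes of Arabidopsis thaliana was hybridized to 12 Affymetrix ATH1 arrays. The groups, of 2 biological replicates each, were atx1 mutant plants under water deficit, watered atx1 plants, MYO-OX plants under water deficit, watered MYO-OX plants, Columbia-0 wild type (WT) under water deficit, and watered WT. All plants were 4 weeks old when the treatment began; in the deficit groups water was held back until their relative water content had come down to 65%. The label of the atx1 line gives only the mutated gene, and that of MYO-OX only the name of the line. The allele, the accession in which it was made, the promoter behind MYO-OX and the number of independent lines are not given here. What the line's background contributes cannot be told apart from the mutation or the transgene. Nothing in the labels says how many plants went into a replicate, so p-values measure only the spread between these samples.

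Levels are log2 signals made by robust multi-array averaging (RMA), as means ± SD with n = 2, and differences carry the standard error (SE) of a limma fit over all probe sets. The atx1 and MYO-OX comparisons share the same WT arrays. A response is the level under water deficit minus the level in watered plants of the same line. Other genes were called at an adjusted p under 0.05 over all 22746 probe sets. The 2 arrays of atx1 under water deficit stood apart in their control probe sets. The GAPDH 3' minus 5' difference, a measure of RNA integrity and labelling, was 1.74 and 1.19 on them, against 0.444 to 1.09 on the other 10 arrays. Their hybridization controls averaged 10.0 and 9.66, against 8.17 to 9.61 on the others. Watered MYO-OX replicate 1 also stood apart from its partner, with a correlation of 0.928 over probe sets against 0.968 to 0.987 in the other groups. Of 13 leaf markers only RCA, the rubisco activase gene, was measured under its own name. It stood at 10.8 on that array, against 12.4 to 13.8 on the others, and it was not called in any comparison. Of 6 root markers PYK10, a root beta-glucosidase gene, and EXPA7 were measured. PYK10 was lower in watered atx1 than in watered WT (difference -3.88, limma adjusted p = 0.00848), a call lost without watered replicate 1 of either line, with adjusted p up to 0.0786. The response of PYK10 was -2.72 in WT and -2.35 in MYO-OX, both called, and 0.58 in atx1, not called. Those calls were lost in 1 and 2 of 20 alternative fits. The levels of ATX1 and MYO1 were not analysed here.

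DELTA-VPE was higher on the atx1 arrays than on all others, and was high there only under water deficit. Under water deficit it stood at 9.03 and 8.80 in atx1, against 4.18 and 3.95 in MYO-OX and 4.002 and 3.855 in WT. In watered plants it stood at 6.13 and 5.83 in atx1, against 4.24 and 3.99 in MYO-OX and 4.07 and 4.06 in WT. Every atx1 array lay above all 8 arrays of MYO-OX and WT, and both deficit arrays of atx1 lay above both watered ones. In rank among the probe sets of the same array, 83.5% to 86.8% lay at or below DELTA-VPE on the deficit arrays of atx1 and 45.3% to 50.7% on its watered arrays. On the 8 MYO-OX and WT arrays this share was 13.05% to 23.6%. No detection call was used here, and whether signals this low exceed background is not known, so folds taken over them are not exact.

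**Figure D1:**
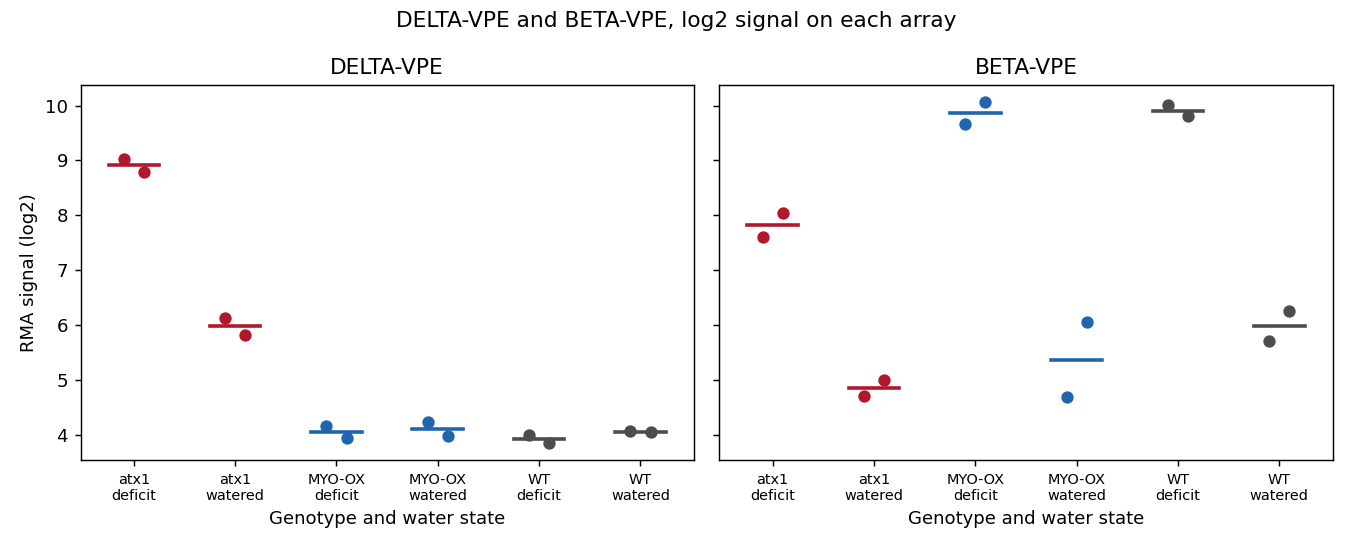
Log2 RMA signal of DELTA-VPE (left) and BETA-VPE (right) on each of the 12 arrays, by genotype and water state. Points are arrays and bars are group means of 2 arrays. DELTA-VPE stood apart in the atx1 groups, with means of 8.91 under water deficit and 5.98 in watered plants, while BETA-VPE was high under water deficit in all 3 genotypes, with the lowest of those means in atx1 (7.83).

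The group means of DELTA-VPE were 8.91 ± 0.167 for atx1 deprived of water and 5.98 ± 0.216 for watered atx1, a response of 2.93 (SE 0.185), or 7.64-fold. In MYO-OX the response was -0.05, with means of 4.07 ± 0.159 and 4.11 ± 0.181. In WT it was -0.14, with means of 3.93 ± 0.104 and 4.07 ± 0.00619. The spread of DELTA-VPE between replicates, pooled over the 6 groups, was 0.155. The atx1 response was thus 19 times that spread, and the WT response 0.89 times. Both WT deficit arrays nonetheless lay just under both watered ones, and the MYO-OX arrays of the water states overlapped.

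Set against WT, DELTA-VPE was 4.99 (SE 0.185) higher in atx1 under water deficit, a 31.7-fold difference, and 1.92 (SE 0.185) higher in watered atx1, a 3.77-fold difference. Over all probe sets the median of these differences was 0.01 under water deficit and 0.04 in watered plants. Only 0.0264% of the 22746 probe sets showed a higher value than DELTA-VPE for atx1 minus WT under water deficit, and 0.778% in watered plants. The atx1 response exceeded the WT response by 3.07 (SE 0.261), with 0.211% of probe sets higher. Between MYO-OX and WT the differences were 0.14 under water deficit and 0.05 in watered plants, and the arrays overlapped in both. As a background to these contrasts, limma called 12.1% of probe sets for atx1 minus WT under water deficit, 2.2% in watered plants, 3.19% for the atx1 response and 0.176% for the difference of the atx1 and WT responses. In order of mean, the atx1 deficit group came first, 2.93 above watered atx1, which came second, 1.87 above watered MYO-OX. The last 4 groups, watered MYO-OX, watered WT, MYO-OX under water deficit and WT under water deficit, lay within 0.19 of each other, and neighbours among them did not differ beyond their spread. In whole-rosette RNA, a change in the share of a cell type cannot be told apart from a change in RNA per cell.

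BETA-VPE was high under water deficit in every genotype, and lay lower in atx1 than in WT in both water states. In atx1 it stood at 7.61 and 8.05 under water deficit, against 4.716 and 5.002 in watered plants. In MYO-OX it stood at 9.67 and 10.06 under water deficit, against 4.69 and 6.07 in watered plants. In WT it stood at 10.01 and 9.80 under water deficit, against 5.72 and 6.25 in watered plants. Within each genotype the deficit arrays lay above the watered arrays with no overlap. Under water deficit the atx1 arrays lay below all 4 MYO-OX and WT arrays. In watered plants the atx1 arrays lay below both WT arrays, and 1 of the 2 MYO-OX arrays lay at the atx1 level.

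The responses of BETA-VPE were 2.97 (SE 0.419) in atx1, 4.49 in MYO-OX and 3.92 in WT, or 7.85-fold, 22.4-fold and 15.1-fold. Fewer than 1 in 100 probe sets had a higher response, namely 0.374% in atx1, 0.387% in MYO-OX and 0.541% in WT. As a background, 24.7% of probe sets were called in the MYO-OX response and 19.6% in the WT response. The means were 7.83 ± 0.307 in atx1 against 9.91 ± 0.147 in WT under water deficit, a difference of -2.07 (SE 0.419). In watered plants they were 4.86 ± 0.202 in atx1 against 5.99 ± 0.377 in WT, a difference of -1.13. The atx1 response was 0.94 (SE 0.593) smaller than that of WT, 2.01 times the pooled spread of 0.47 between replicates.

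The lower BETA-VPE of atx1 under water deficit moved with the control probe sets of that group. With the GAPDH 3' minus 5' difference as a covariate, atx1 minus WT under water deficit was -0.83 and the atx1 response 4.004. The difference of the atx1 and WT responses then turned to 0.30. With the hybridization controls as a covariate the same values were -1.33, 3.56 and -0.45. For DELTA-VPE the covariates gave 4.58 and 4.70 for atx1 minus WT under water deficit, and 2.59 and 2.70 for the atx1 response. Both covariates were highest on the arrays of that group, and their part in the BETA-VPE difference was not tested.

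The MYO-OX and WT arrays overlapped in BETA-VPE in both water states. Under water deficit the mean was 9.87 ± 0.281 in MYO-OX against 9.91 ± 0.147 in WT, a difference of -0.04. In watered plants it was 5.38 ± 0.972 in MYO-OX against 5.99 ± 0.377 in WT, a difference of -0.61, or 1.3 times the pooled spread. That value rested on which watered MYO-OX array was used, at 0.08 without replicate 1 and -1.30 without replicate 2. The MYO-OX response was 3.80 without watered replicate 1 and 5.18 without watered replicate 2. No probe set was called by limma for MYO-OX minus WT, 0% of 22746 in either water state, with 606 at an unadjusted p under 0.05 in watered plants and 147 under water deficit. Both counts were below 0.05 of the probe sets, the share that would fall there if none differed. In order of mean, BETA-VPE was highest in WT and MYO-OX under water deficit, which overlapped, then 2.03 lower in atx1 under water deficit, and a further 1.84 lower in watered WT. Watered WT overlapped watered MYO-OX, which in turn overlapped watered atx1.

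**Figure D2:**
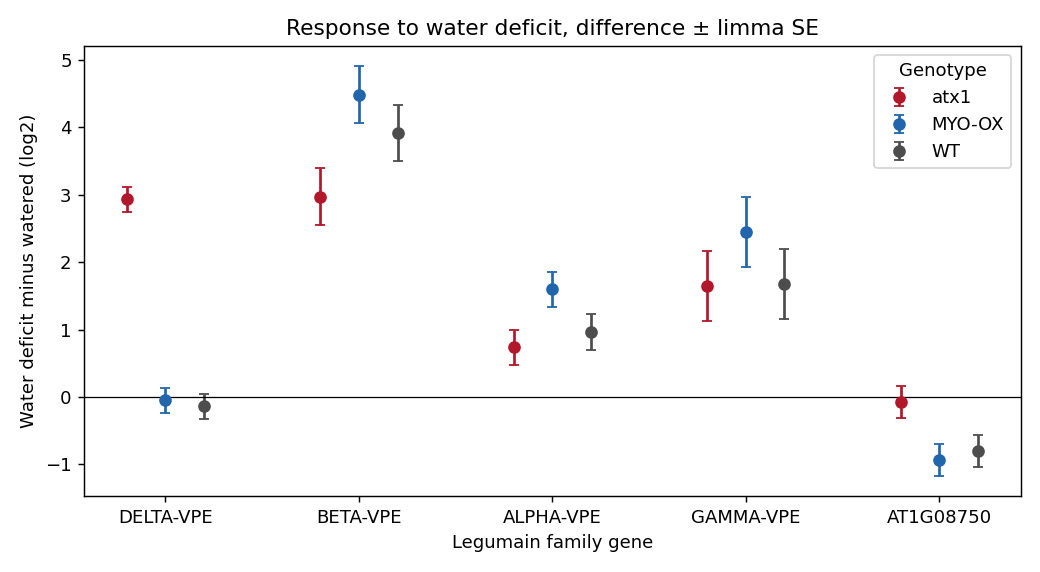
Response to water deficit (log2, deficit minus watered) of the 5 measured legumain family genes in atx1, MYO-OX and WT. Points are differences of group means of 2 arrays and bars are ± 1 limma SE. The DELTA-VPE response was 2.93 in atx1, -0.05 in MYO-OX and -0.14 in WT, while BETA-VPE had the largest responses of the 5 in MYO-OX (4.49) and WT (3.92).

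The other 3 legumain family genes lay closer together in atx1 and WT, with atx1 0.01 to 1.01 higher under water deficit and 0.12 to 0.29 higher in watered plants. ALPHA-VPE (AT2G25940), a vegetative form, stood under water deficit at 5.72 and 5.69 in atx1, 5.74 and 6.50 in MYO-OX and 5.85 and 5.54 in WT. In watered plants it stood at 5.02 and 4.92 in atx1, 4.45 and 4.61 in MYO-OX and 4.52 and 4.94 in WT. Within each genotype its deficit arrays lay above its watered arrays. Its response was 0.73 in atx1 (limma adjusted p = 0.212), and it rose in MYO-OX by 1.60 (adjusted p = 0.00424) and in WT by 0.97 (adjusted p = 0.0359). The WT call was lost when any 1 of the 8 arrays of WT and atx1 was left out, with adjusted p up to 0.228.

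GAMMA-VPE (AT4G32940), the main vegetative form, stood under water deficit at 12.85 and 12.73 in atx1, 12.75 and 12.94 in MYO-OX and 12.91 and 12.48 in WT. In watered plants it stood at 11.01 and 11.27 in atx1, 9.46 and 11.33 in MYO-OX and 10.71 and 11.32 in WT. The deficit arrays were alike in the 3 genotypes, and the low watered value is on MYO-OX replicate 1. The responses of GAMMA-VPE were 1.65 in atx1 (limma adjusted p = 0.15), 2.45 in MYO-OX (adjusted p = 0.0111) and 1.68 in WT (adjusted p = 0.0541), of which that in MYO-OX was called. The call was lost without MYO-OX deficit replicate 2 and with only the 4 MYO-OX arrays in the fit, with adjusted p up to 0.123.

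**Figure D3:**
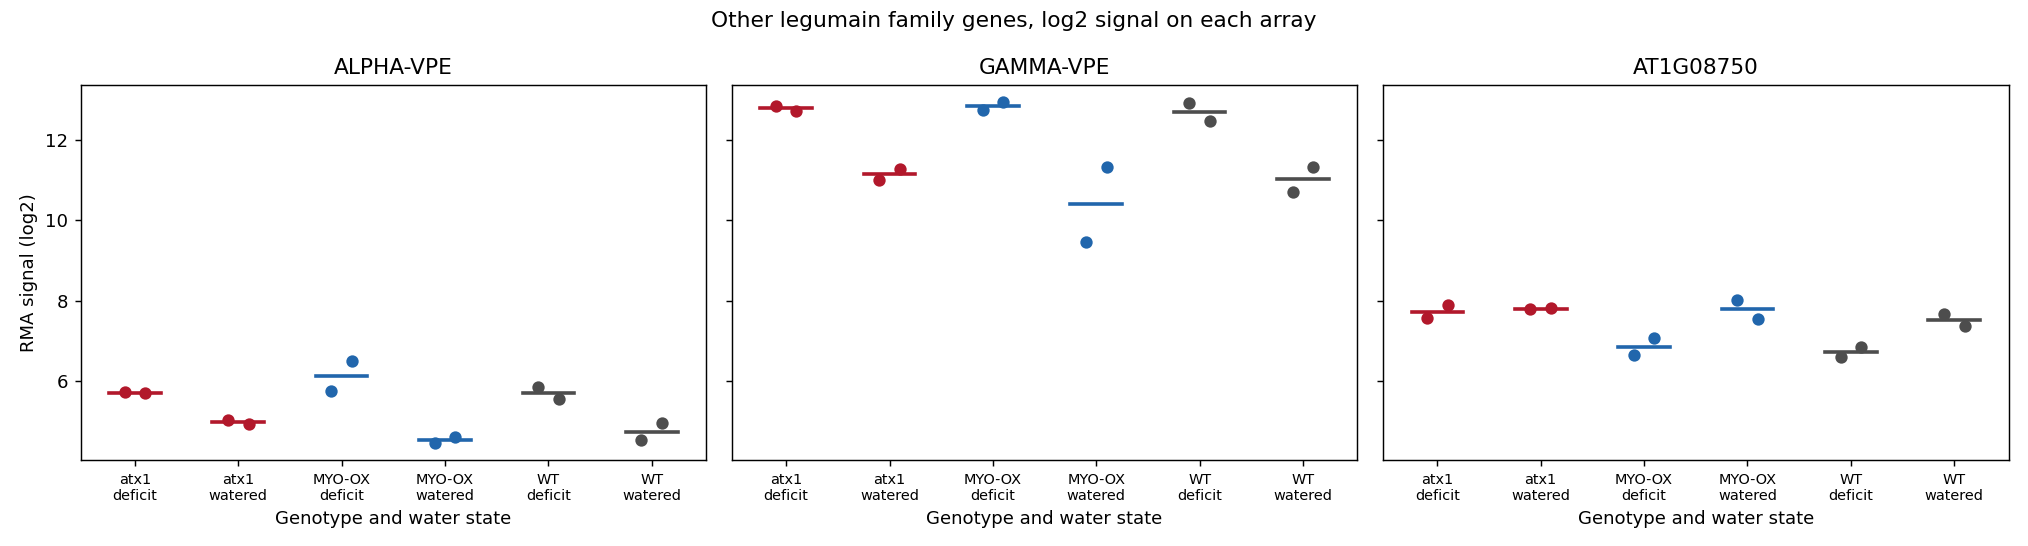
Log2 RMA signal of ALPHA-VPE, GAMMA-VPE and AT1G08750 on each of the 12 arrays, by genotype and water state. Points are arrays and bars are group means of 2 arrays. GAMMA-VPE was near 12.8 on the deficit arrays of all 3 genotypes, and AT1G08750 averaged 7.72 under water deficit in atx1, against 6.84 in MYO-OX and 6.71 in WT.

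AT1G08750, listed as GPI8 and not as a vacuolar processing enzyme, is the last locus of the family list and moved the other way. It stood under water deficit at 7.56 and 7.88 in atx1, 6.63 and 7.06 in MYO-OX and 6.597 and 6.831 in WT. In watered plants its arrays lay between 7.36 and 8.02. Its response was -0.08 in atx1 (limma adjusted p = 0.955), and it fell in MYO-OX by 0.93 (adjusted p = 0.0233) and in WT by 0.80 (adjusted p = 0.0487). Under water deficit it was 1.01 higher in atx1 than in WT (adjusted p = 0.0305). These calls were unstable, and were lost in 5, 13 and 11 of 20 alternative fits, with adjusted p up to 0.165, 0.271 and 0.214. The first was lost without replicate 1 of either MYO-OX group, the second without any 1 WT or atx1 array, and the third without any 1 WT or atx1 deficit array or either watered atx1 array. The difference of the atx1 and WT responses was not called by limma for ALPHA-VPE (adjusted p = 0.935), GAMMA-VPE (adjusted p = 0.998) or AT1G08750 (adjusted p = 0.528).

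Other proteases, vacuolar hydrolases and inhibitors were set beside the pair through 4 lists of loci, of which 24 of 42 were measured, counting the 3 family genes above. In the atx1 response 4 of the 24 rose and none fell, against 2.1% and 1.09% of all probe sets. In the MYO-OX response 13 rose and 2 fell, against 10.7% and 14%. In the WT response 13 rose and 2 fell, against 8.96% and 10.7%. The medians of the 24 were 0.78 in atx1, 1.00 in MYO-OX and 1.08 in WT, where the medians over all probe sets were -0.01, 0.04 and 0.01. The counts depended on the arrays in the fit. With only the arrays of the comparison there were 0 calls in atx1 in place of 4, 1 in MYO-OX in place of 15 (AT1G62290) and 17 in WT in place of 15. With 1 array left out, in place of 4 atx1 calls there were 0 without either watered atx1 replicate or atx1 deficit replicate 2, in place of 15 MYO-OX calls 9 without MYO-OX deficit replicate 2, and in place of 15 WT calls 6 without watered WT replicate 1 and 5 without WT deficit replicate 1. For the difference of the atx1 and WT responses limma called 0 of the 24, against 0.106% of all probe sets higher and 0.0703% lower, or 40 in all, with 2320 at an unadjusted p under 0.05.

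Of the 8 measured papain-like cysteine proteases of 19 listed, 2 rose in atx1, 5 rose and 1 fell in MYO-OX, and 4 rose and 1 fell in WT. AT4G01610, picked out after its values were seen as 1 of the 2 genes called in atx1, rose by 1.24 in atx1 (limma adjusted p = 0.0139), 1.07 in MYO-OX and 1.43 in WT (adjusted p = 0.00189). The atx1 call was lost without either watered atx1 replicate and without atx1 deficit replicate 2, with adjusted p up to 0.0912. AT3G19390, at 1.60 in atx1 (adjusted p = 0.0802), rose by 1.67 in MYO-OX (adjusted p = 0.019) and 1.93 in WT (adjusted p = 0.0122), and AT2G21430 by 1.69 (adjusted p = 0.00673) and 1.58 (adjusted p = 0.01). Without MYO-OX deficit replicate 2 the MYO-OX calls of both were lost, as were the WT calls of both without watered WT replicate 1 or WT deficit replicate 1, with adjusted p up to 0.118. AT3G19390 also lost its MYO-OX call without watered MYO-OX replicate 2, and AT2G21430 its WT call without watered WT replicate 2. The response of AT3G45310 was -0.25 in atx1 (adjusted p = 0.66), and it fell by 1.46 in MYO-OX (adjusted p = 0.00174) and by 1.33 in WT (adjusted p = 0.00278).

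Inhibitors of cysteine proteases were listed at 9 loci and measured at 5. In atx1 1 of the 5 rose, and in MYO-OX and in WT 3 did. AT5G47550, listed as a cystatin, was lower in atx1 than in WT under water deficit, as BETA-VPE was. It stood under water deficit at 10.2 and 10.3 in atx1, 12.7 and 11.9 in MYO-OX and 12.1 and 12.1 in WT. The atx1 arrays lay below the other 4. Its response was 1.07 in atx1 (limma adjusted p = 0.247), and it rose in MYO-OX by 2.45 (adjusted p = 0.00458) and in WT by 2.22 (adjusted p = 0.00758). The WT call was lost without WT deficit replicate 1 (adjusted p = 0.0606). The difference of atx1 from WT under water deficit was -1.84 (adjusted p = 0.0259), a call lost without any 1 of those 4 arrays, with adjusted p up to 0.159. AT5G05110 rose in atx1 by 1.22 (adjusted p = 0.045), in MYO-OX by 1.41 (adjusted p = 0.00612) and in WT by 1.59 (adjusted p = 0.0041). The atx1 call was lost in 14 of 20 alternative fits, among them those without any 1 atx1 array, with adjusted p up to 0.229. SERPIN1, a serpin that binds papain-like proteases, rose in WT by 1.10 (adjusted p = 0.0371), a call lost without either watered WT array, WT deficit replicate 1 or either MYO-OX deficit array, with adjusted p up to 0.256.

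Other vacuolar hydrolases and cell death genes were measured at 8 of 11 loci, of which 1 rose in atx1, 3 in MYO-OX and 5 in WT. The response of AT1G62290 was 0.12 in atx1 (limma adjusted p = 0.904), and it rose in MYO-OX by 1.60 (adjusted p = 0.00179) and in WT by 2.04 (adjusted p = 0.000734). The difference of its atx1 and WT responses was -1.92 and was not called (adjusted p = 0.0645). In watered plants AT1G62290 was already 1.565 higher in atx1 than in WT (limma adjusted p = 0.0103). Under water deficit its difference of atx1 from WT was -0.355 and was not called (adjusted p = 0.363). The watered call was lost with only the arrays of the comparison (adjusted p = 0.106). It was also lost without watered WT replicate 2 or either watered atx1 replicate. SCPL49, a serine carboxypeptidase-like gene, rose in MYO-OX by 1.53 (adjusted p = 0.00394) and in WT by 1.65 (adjusted p = 0.00304). The response of AT4G18425 was 2.01 in atx1 (adjusted p = 0.0623), and it rose in WT by 2.02 (adjusted p = 0.0183), a call lost without replicate 1 of either WT group with adjusted p up to 0.15.

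Between atx1 and WT, 6 of the 24 protease, hydrolase and inhibitor genes were higher in atx1 in watered plants and none lower, against 1.2% and 1.01% of all probe sets. Under water deficit 8 were higher and 1 lower, against 7.36% and 4.73%. The watered count of 6 was 0 with only the 4 arrays of the comparison in the fit, and 2 or 3 without any 1 of them. The deficit count of 9 was 4 without WT deficit replicate 1 and 5 without atx1 deficit replicate 2. The 5 genes that follow were called higher in atx1 in both water states and were picked out after their values were seen. AT1G02300, a papain-like protease locus, stood at 10.1 and 10.0 on the deficit arrays of atx1 and 10.2 and 9.57 on its watered arrays, against 5.58 to 6.40 in WT. It was 3.81 higher in atx1 than in WT under water deficit (limma adjusted p = 0.000454) and 3.97 higher in watered plants (adjusted p = 0.000856). AT4G04460, listed as an aspartic protease, was 3.43 higher under water deficit (adjusted p = 0.000688) and 3.32 higher in watered plants (adjusted p = 0.00187). AT1G06260 was 2.75 (adjusted p = 0.0182) and 2.84 (adjusted p = 0.0434) higher, and AT1G72290 2.57 (adjusted p = 0.00195) and 1.90 (adjusted p = 0.0156). The carboxypeptidase-like gene scpl48 was 1.54 (adjusted p = 0.00472) and 1.28 (adjusted p = 0.0255) higher. Where DELTA-VPE differed far more under water deficit than in watered plants, AT1G02300, AT4G04460 and AT1G06260 differed by about the same amount in both.

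With only the arrays of the comparison, the adjusted p of all 5 in watered plants missed the threshold, at 0.0569 for AT1G02300, 0.0534 for AT4G04460, 0.112 for AT1G06260, 0.14 for AT1G72290 and 0.0944 for scpl48. Without 1 array, the watered calls of AT1G06260 and scpl48 were lost for each of the 4 watered atx1 and WT arrays, with adjusted p up to 0.277 and 0.187, and AT1G06260 also without any deficit array of atx1 or MYO-OX. Its deficit call was lost without WT deficit replicate 1 or either atx1 deficit replicate, with adjusted p up to 0.141. The watered call of AT1G72290 was lost without either watered WT array, with adjusted p up to 0.131.

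**Figure D4:**
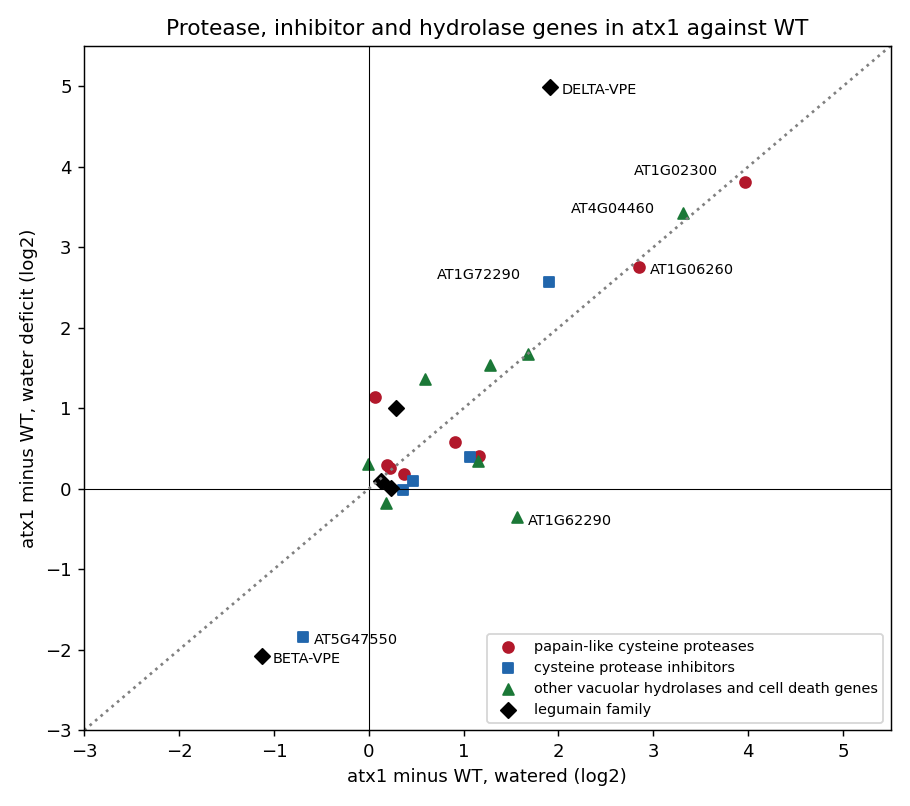
Difference of atx1 from WT (log2) under water deficit against the same difference in watered plants, for the 26 measured legumain family, papain-like protease, inhibitor and hydrolase genes. The dotted line marks equal differences. DELTA-VPE lies far above the line (4.99 against 1.92), BETA-VPE lies lowest (-2.07 against -1.13), and AT1G02300, AT4G04460 and AT1G06260 lie close to the line.

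Markers of seeds and seed coats, where both genes are known to act, were mostly low. Of 13 seed coat genes only BAN, a proanthocyanidin pathway gene of the seed coat, was measured. It stood at 5.24 and 5.14 in atx1 under water deficit, against 4.01 to 4.58 on the other 10 arrays. It rose in atx1 by 1.00 (limma adjusted p = 0.0257) and was 0.86 higher in atx1 than in WT under water deficit (adjusted p = 0.0196). Those calls were lost in 9 and 7 of 19 alternative fits, in each case without any 1 of the 4 deficit arrays of atx1 and WT, with adjusted p up to 0.14 and 0.156.

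Of 10 seed storage protein genes AT1G03890 and PAP85 were measured, and of 14 seed maturation genes OLEO3 and AT3G01570. None was called in any comparison. PAP85, a vicilin-like seed storage gene, stood at 4.30 and 8.06 in atx1 under water deficit, against 3.98 to 6.49 on the other 10 arrays. Only 1 of the 2 arrays was high, while DELTA-VPE was high on both. AT3G01570, of the oleosin list, stood under water deficit at 5.27 and 8.32 in atx1, 6.50 and 7.50 in MYO-OX and 6.92 and 7.07 in WT, against 4.15 to 4.88 in watered plants. Its response was 2.14 in atx1 (limma adjusted p = 0.24), 2.49 in MYO-OX (adjusted p = 0.0582) and 2.45 in WT (adjusted p = 0.0714). The part of seed tissue in the levels of both genes was not tested.

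Some genes of anthers, pollen and nectaries were higher on the atx1 arrays, as DELTA-VPE was, although the samples are labelled vegetative rosettes. None of the 11 general flower markers listed was measured under its own name. A further list of 47 loci, drawn up after the values of other genes had been seen, had 15 measured members. Their mean log2 level was 6.06 to 6.57 on the 4 atx1 arrays, against 5.17 to 5.43 on the 8 MYO-OX and WT arrays. Of the 15, 8 (53.3%) were higher on every atx1 array than on every other array, as were 920 of the 22746 probe sets (4.04%). Since the list was drawn up after values had been seen, these shares are a description and not a test. Among the 8 were AT1G75880, AT1G75900, AT1G75920 and ATA27 (AT1G75940), whose locus numbers lie close together. SPL was among them by little, with its lowest atx1 array at 4.455 and its highest other array at 4.424. For AT1G75920, also low, these were 4.608 and 4.345. ATA27, an anther gene, stood at 8.37 and 8.72 on the deficit arrays of atx1 and 8.55 and 8.68 on its watered arrays, against 3.65 to 6.25 in MYO-OX and WT. SWEET9, a nectary sugar transporter gene, stood at 7.95 and 6.41 on the deficit arrays of atx1 and 6.52 and 5.61 on its watered arrays, against 3.83 to 4.16 in the others. SWEET8, a transporter gene of pollen development, stood at 6.30 to 7.87 in atx1, against 4.78 to 5.59 in the others.

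The other 7 members, AMS, INO, UFO, TUA1, SWEET13, AT59 and AT1G75890, did not separate all atx1 arrays from all others. AMS, a tapetum regulator, INO, an ovule integument regulator, and UFO, a floral meristem gene, lay between 4.05 and 4.90 on all 12 arrays, with atx1 arrays among the others. TUA1, the pollen-rich alpha tubulin gene, stood at 7.71 to 8.58 in atx1, against 8.06 to 9.76 in MYO-OX and WT. SWEET13, which leaf phloem also uses, stood at 8.84 and 8.27 on the deficit arrays of atx1 and 7.03 and 6.09 on its watered arrays, against 7.45 to 8.47 in MYO-OX and WT. Both watered atx1 arrays lay below all 8 MYO-OX and WT arrays, and 1 deficit atx1 array lay above them. Its response was thus 2.00 in atx1 and -0.46 in WT, where that of DELTA-VPE was 2.93 and -0.14. The WT value of DELTA-VPE was only 0.89 times its spread between replicates. In watered plants DELTA-VPE was higher in atx1 than in WT, where SWEET13 was lower. Over the 15 genes the atx1 response had a median of 0.18 and was positive for 9, and 3 of them exceeded 1, namely SWEET13, SWEET9 (1.11) and AT1G75880 (1.11). ATA27 averaged 8.55 under water deficit and 8.61 in watered plants of atx1. The part of floral tissue in the DELTA-VPE levels was not tested.

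**Figure D5:**
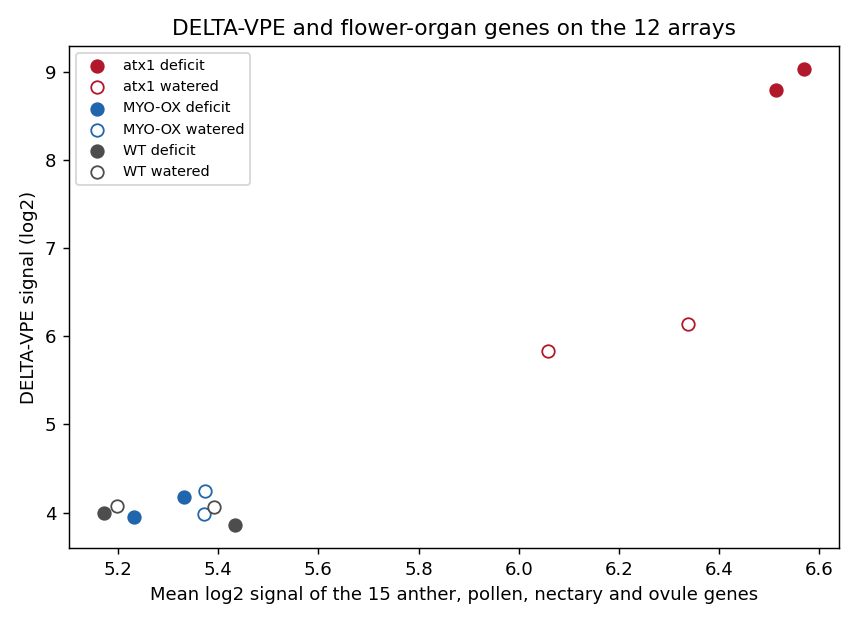
DELTA-VPE log2 signal on each of the 12 arrays against the mean log2 signal of 15 anther, pollen, nectary and ovule genes, by genotype (colour) and water state (filled for deficit, open for watered). The 4 atx1 arrays lie at 6.06 to 6.57 on the horizontal axis and the 8 others at 5.17 to 5.43, and the deficit arrays of atx1 lie higher in DELTA-VPE than the watered ones.

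Senescence, vacuolar sorting and dehydration genes were set beside BETA-VPE. SAG29, which encodes a sugar transporter active in ageing leaves, rose in all 3 genotypes, by 3.72 in atx1 (limma adjusted p = 0.025), 5.14 in MYO-OX and 5.30 in WT. The atx1 call was lost without watered atx1 replicate 2 and without deficit replicate 2, with adjusted p up to 0.15. Of 12 listed senescence genes 3 were measured, and the other two, both senescence regulators in leaves, went the other way where called. WRKY53 fell in MYO-OX by 1.75 (adjusted p = 0.0259) and in WT by 1.58 (adjusted p = 0.0436), calls lost in 5 and 10 of 20 alternative fits, with adjusted p up to 0.13 and 0.268, the first without any 1 of the 4 MYO-OX arrays and the second without watered WT replicate 1 or any 1 deficit array. SAG101 fell in MYO-OX by 1.30 (adjusted p = 0.0077). Of 16 genes for vacuolar sorting and the tonoplast, MAG2, which acts in the export of seed storage proteins from the endoplasmic reticulum, and VHA-A3 were measured. The response of MAG2 was 0.14 in atx1 (adjusted p = 0.943), and it rose in MYO-OX by 1.46 (adjusted p = 0.0194) and in WT by 1.44 (adjusted p = 0.024). The MYO-OX call was lost without watered MYO-OX replicate 1 or MYO-OX deficit replicate 2, and the WT call without any 1 of the 4 WT arrays, with adjusted p up to 0.106 and 0.147. Of 19 ABA and dehydration genes, the dehydrin genes LTI30 and COR47 were measured. LTI30 rose by 3.23 in atx1 (adjusted p = 0.0139), 4.02 in MYO-OX and 5.25 in WT, and COR47, at 1.23 in atx1 (adjusted p = 0.144), rose by 2.78 in MYO-OX and 3.09 in WT. The atx1 call of LTI30 was lost without replicate 2 of either atx1 group, with adjusted p up to 0.0924. Like BETA-VPE, LTI30 was lower in atx1 than in WT under water deficit, by 2.02 (adjusted p = 0.0362). That call was lost with the GAPDH covariate (limma adjusted p = 0.116). It was also lost without atx1 deficit replicate 1, any 1 WT array or either MYO-OX deficit array. None of the 9 metacaspase genes listed was measured under its own name.

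Profiles like those of the pair were looked for over the 12 arrays among probe sets with 1 named gene, by the root mean square difference after each profile's own mean was subtracted. Nearest to DELTA-VPE were AT4G12890 (0.245), AT3G07820 (0.393), AT4G15750 (0.433), AT5G49180 (0.437) and AT5G45880 (0.454). AT4G12890 had means of 8.14 for atx1 deprived of water and 5.67 for watered atx1, against 3.69 to 3.92 in the other 4 groups. Nearest to BETA-VPE were PUB19 (0.374), AT4G32920 (0.44), AT1G69480 (0.45), AT5G01670 (0.476) and AT3G48020 (0.483). PUB19, for a U-box ubiquitin ligase, averaged 9.99 in atx1, 11.9 in MYO-OX and 11.7 in WT under water deficit, against 6.61, 7.62 and 8.26 in watered plants. With Pearson correlation as the measure, 2 of the 5 stayed nearest for each gene.

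The nearest measured neighbours on the chromosome were also looked up. AT3G20200, next to DELTA-VPE on chromosome 3, was not called in any comparison, and its difference of atx1 from WT under water deficit was 0.82 (limma adjusted p = 0.0655). AT3G20230, on the other side with 2 genes between, had a response of -1.22 in atx1 (adjusted p = 0.167), and fell in MYO-OX by 2.23 (adjusted p = 0.00573) and in WT by 2.05 (adjusted p = 0.00891). Its WT call was lost without replicate 1 of either WT group, with adjusted p up to 0.0808. AT1G62690 and AT1G62730, on either side of BETA-VPE on chromosome 1, were not called in any comparison.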

How the data were processed

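The authors made the deposited log2 signals from the scanned arrays with RMA, per the submitters' processing notes, and no version is given in the sources used here. Precision here is limited by the number of arrays. Of 22810 probe sets, 64 controls were set apart and 22746 tested. Probe sets were named through the annotation of the array, which listed 14016 of them. Of these 13513 had 1 gene and 503 several, and the rest of the array had no name here. A locus given as not measured may thus have a probe set that was left unnamed. Names and neighbours came from RefSeq TAIR10.1. Where several probe sets read 1 gene, the one with the highest mean was used.

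All 12 arrays entered 1 limma model of the 6 group means (limma 3.58.1, R 4.3.3, with 6 residual and 2.34 prior degrees of freedom), from which 9 comparisons were taken, with Benjamini-Hochberg adjustment inside each comparison. The fit was first run on simulated data with known changes and independent noise. That checks the computation only, since deviations shared between arrays were not simulated. The genes, the lists (167 loci, 41 measured) and the rule for names were chosen with earlier results of these data known. The rule named both genes, their family, up to 3 members with the largest response per list, the 5 nearest profiles and the nearest neighbours. Genes named outside it are said to be picked after their values were seen, or belong to the added list of 47 loci. Measured means named under 1 gene. The alternatives were median centring, repeated quantile normalization, leaving out the dimmest 40% of probe sets, a robust prior with an intensity trend, fitting only the arrays of a comparison, a replicate block, GAPDH and hybridization covariates, and each array left out. Array images and gene sequences were not used here.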

Additional observations from a re-analysis of the deposited data

Results flagged for a closer look

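DELTA-VPE was flagged because its deficit arrays separated from its watered arrays on opposite sides in atx1 and in WT. The WT signals were low, and whether they exceed background is not known, so a fall in WT is not shown. Both deficit arrays lay above both watered arrays in atx1 (9.03 and 8.80 against 6.13 and 5.83), and both lay below in WT (4.002 and 3.855 against 4.07 and 4.06). The responses differed by 3.07 (SE 0.261). This difference was not tested, since the gene was chosen with these values known, and the WT side of it was 0.89 times the spread between replicates.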

How the results depend on the processing

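DELTA-VPE kept its direction for atx1 minus WT in both water states and for the atx1 response in every alternative that gave a value. For many of these the direction was fixed in advance. The robust prior, the fit of only the arrays of a comparison and the replicate block leave these differences unchanged. Leaving out 1 array could not turn them, since the arrays of the compared groups do not overlap. With the dimmest 40% of probe sets left out DELTA-VPE was not fitted. Median centring gave 4.76 for atx1 minus WT under water deficit. The GAPDH covariate gave 4.58 for that difference, 2.59 for the atx1 response and 2.66 for the difference of the atx1 and WT responses; the hybridization covariate gave 4.70, 2.70 and 2.88. For BETA-VPE the GAPDH covariate gave -0.83, 4.004 and 0.30, and the hybridization covariate -1.33, 3.56 and -0.45. Leaving out 1 array at a time gave 3.80 to 5.18 for the MYO-OX response of BETA-VPE, -1.30 to 0.077 for MYO-OX minus WT in watered plants and -0.12 to 1.26 for the difference of the MYO-OX and WT responses, each set by the watered MYO-OX replicates.

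Counts of called probe sets moved more. With the GAPDH covariate they were 3908 for the atx1 response (725), 986 for atx1 minus WT in watered plants (501) and 1460 under water deficit (2751), 1 for MYO-OX minus WT in each water state (0) and 5 for the difference of the atx1 and WT responses (40). With the hybridization covariate they were 2259 for the atx1 response and 1785 for atx1 minus WT under water deficit. With only the arrays of the comparison limma called 0 for the atx1 response, 1176 for the MYO-OX response (5616) and 60 for atx1 minus WT in watered plants. Repeated quantile normalization gave 72 and the trend with a robust prior 99 for the difference of the atx1 and WT responses. Leaving out 1 array gave 1441 to 6109 for the WT response (4466), 177 to 1166 for the atx1 response, 2686 to 7766 for the MYO-OX response, 101 to 765 for atx1 minus WT in watered plants and 504 to 3977 under water deficit. It gave 0 to 410 for MYO-OX minus WT in watered plants, 0 to 107 for the difference of the atx1 and WT responses and 0 to 1 for that of MYO-OX and WT. With fewer arrays in the fit there are fewer residual degrees of freedom; otherwise the cause was not tested.

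Of 71 calls among the listed and neighbouring genes, 15 were kept in all fits, 26 in all 12 fits with 1 array left out and 28 in all 8 others, and none turned its direction. Same-numbered replicates deviated together among the 3 watered groups (correlations of 0.514 to 0.561), and there replicate 1 had the higher GAPDH and hybridization values in each line. Over all 15 pairs of groups the correlations ran from -0.286 to 0.561, 9 of them over 0.1, and the labels do not say what a number shares. With the replicate block, atx1 minus WT in watered plants had 616 calls in place of 501, 7 of the 24 protease, hydrolase and inhibitor genes in place of 6, and the difference of the atx1 and WT responses had 24 in place of 40. The block could not change the DELTA-VPE and BETA-VPE differences, since every group held both replicate numbers.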
